A study of Mus musculus with 8 samples.

Results

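The 34 genes described here mark the blood vessels of the brain: 25 belong to the endothelial cells that form the blood-brain barrier, 6 to pericytes and 3 to vascular smooth muscle. They were listed by name and matched to Ensembl identifiers, and all 34 are among the 31417 genes of the count table. Their levels were compared between Dclk3 knockout (KO) and wild-type (WT) mice by RNA sequencing of the striatum, the part of the basal ganglia that receives cortical input. Dclk3 encodes doublecortin-like kinase 3, a kinase enriched in striatal neurons. Each of the 8 libraries came from the striatum of a single mouse aged 12 months. The 4 KO mice carried the Dclk3 knockout, and the 4 WT mice are named in their titles as the controls of the knockout. No source used here gives the deleted part of Dclk3, the strain or sex of the mice, or whether the gene was removed in all cells. RNA was taken from whole tissue, so fewer vessel cells and less RNA per vessel cell cannot be told apart in any value below.

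Brain endothelial cells are sealed to each other by tight junctions and carry transporters that feed the tissue and pump foreign compounds back into the blood. Pericytes sit on the capillary wall, are recruited by endothelial PDGF-B through the receptor PDGFRB, and are needed for the barrier to stay closed. Smooth muscle cells wrap arteries and arterioles and contract to set blood flow.

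Promoters are shown for Slco1a4, Rgs5 and Vtn, members of the endothelial and pericyte classes with an unadjusted p under 0.05, and for Acta2 as the smooth muscle gene in the table. The sequences are from RefSeq on build GRCm38.p6, run 5′ to 3′ on the strand of the gene, and hold 250 bases before and 50 bases after the annotated start. The windows are chr6:141856171-141856470 on the minus strand for Slco1a4, chr1:169655251-169655550 on the plus strand for Rgs5, chr11:78498870-78499169 on the plus strand for Vtn and chr19:34255324-34255623 on the minus strand for Acta2. Capitals mark matches, on either strand, to AGGAAG (a core bound by ETS factors), to TAAACA (a core bound by forkhead factors) and to the CArG box of serum response factor, searched as CC, then 6 bases of A or T with 1 other base allowed, then GG.
Slco1a4: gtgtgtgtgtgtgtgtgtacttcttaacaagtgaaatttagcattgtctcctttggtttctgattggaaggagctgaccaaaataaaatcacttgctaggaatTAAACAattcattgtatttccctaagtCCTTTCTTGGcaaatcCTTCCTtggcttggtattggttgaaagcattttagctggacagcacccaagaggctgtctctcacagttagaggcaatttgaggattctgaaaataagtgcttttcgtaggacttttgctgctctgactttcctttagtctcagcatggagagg
Rgs5: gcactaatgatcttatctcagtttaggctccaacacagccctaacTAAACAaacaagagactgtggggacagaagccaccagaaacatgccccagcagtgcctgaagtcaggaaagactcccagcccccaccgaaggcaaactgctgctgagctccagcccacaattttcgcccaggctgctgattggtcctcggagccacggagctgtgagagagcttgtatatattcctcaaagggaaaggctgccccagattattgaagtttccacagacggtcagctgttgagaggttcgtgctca
Vtn: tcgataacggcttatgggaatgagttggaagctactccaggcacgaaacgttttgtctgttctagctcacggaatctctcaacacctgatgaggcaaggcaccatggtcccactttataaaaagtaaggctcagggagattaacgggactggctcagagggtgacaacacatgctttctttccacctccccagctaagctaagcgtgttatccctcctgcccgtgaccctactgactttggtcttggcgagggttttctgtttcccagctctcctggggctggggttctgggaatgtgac
Acta2: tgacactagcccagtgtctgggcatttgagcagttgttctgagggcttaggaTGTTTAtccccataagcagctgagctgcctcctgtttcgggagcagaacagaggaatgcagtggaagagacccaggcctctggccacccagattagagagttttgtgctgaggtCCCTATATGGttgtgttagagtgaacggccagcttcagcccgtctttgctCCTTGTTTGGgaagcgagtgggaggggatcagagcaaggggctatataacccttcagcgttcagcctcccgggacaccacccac
No marked motifs overlap each other in these windows. The Acta2 window holds 2 CArG boxes, the element for which this promoter is known, and 1 forkhead core. Slco1a4 holds 1 match to each motif, Rgs5 holds a forkhead core and Vtn holds 0 matches. RefSeq windows were found for 23 of the 34 members, with 29 windows in all since some genes have more than 1 start. AGGAAG stood in 13 of 24 endothelial windows (54.2%) and 0 of 4 pericyte windows, against 35.4% of the 32851 windows of all genes. TAAACA stood in 4 of 24 endothelial and 1 of 4 pericyte windows, against 13.4% of all windows. The CArG box stood in 5 of 24 endothelial windows and 0 of 4 pericyte windows, against 9.98% of all windows. A match describes the letters only and is not a binding site.

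Total counts ran from 24441242 to 37145559 per library. Levels are given as CPM, a gene's share of a library's counts after TMM scaling sets the libraries to a common level. All members were counted in every library, with at least 81 counts. The check of the genotype is Dclk3 itself, which was 27.7, 19.6, 20.9 and 22.7 CPM in KO replicates 1 to 4, against 95.2, 116.7, 80.9 and 86.2 CPM in WT replicates 1 to 4. It fell by 2.06 on the log2 scale (SE 0.14, edgeR quasi-likelihood fit, Benjamini-Hochberg adjusted p = 0.000773). The exact permutation test, two-sided over all 70 ways to split the libraries, gave p = 0.0286, the smallest this design allows. Markers of striatal spiny neurons were present in every library, with a summed level of 4377 to 5005 CPM in KO and 4412 to 5244 CPM in WT over 10 genes, led by Ppp1r1b. Libraries also differed in RNA of tissue next to the striatum. The 10 choroid plexus markers summed to 406 to 732 CPM in KO. They summed to 337 to 408 CPM in WT replicates 1 to 3 and to 4415 CPM in WT replicate 4. Ttr led in WT replicate 4, at 2717 CPM. In all other libraries most of the sum was Enpp2, at 351.7 to 483.2 CPM in KO and 273.5 to 338.2 CPM in WT replicates 1 to 3. The 10 thalamic markers, led by Rora, summed to 458 and 716 CPM in KO replicates 1 and 4 and to 288 and 275 CPM in KO replicates 2 and 3, against 277 to 418 CPM in WT. KO replicate 4 and WT replicate 4 stood at the opposite ends of the first principal component of all genes, which held 26.8% of the variance.

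Most of the listed members were slightly higher in KO striatum, and no single member stood clear of the animal-to-animal spread. The members were chosen with earlier results of these data known. Of 24 further genes listed as endothelial, 13 had a log2 fold change above 0, but whether they are confined to endothelium here was not tested. Of the 34 members, all of which passed the filter on low counts, 26 had a log2 fold change (KO over WT) above 0 and 8 had one below 0. These counts did not change under DESeq2's size factors or upper-quartile scaling. The number above 0 was 28 with limma-voom, 25 without WT replicate 3 and 30 without KO replicate 3. Among all 16511 genes tested, 49.5% lay above 0. The median over the members was 0.12, against -0.0011 over all genes tested. The range ran from -0.13 for Egfl7 to 0.58 for Vwf. No members passed an adjusted p of 0.05 by edgeR's quasi-likelihood fit (0 of 34, each with a Benjamini-Hochberg adjusted p of 0.999), and Dclk3 was the 1 gene called (0.00606% of those tested). The DESeq2 Wald test and limma-voom called 0 members too.

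**Figure D1:**
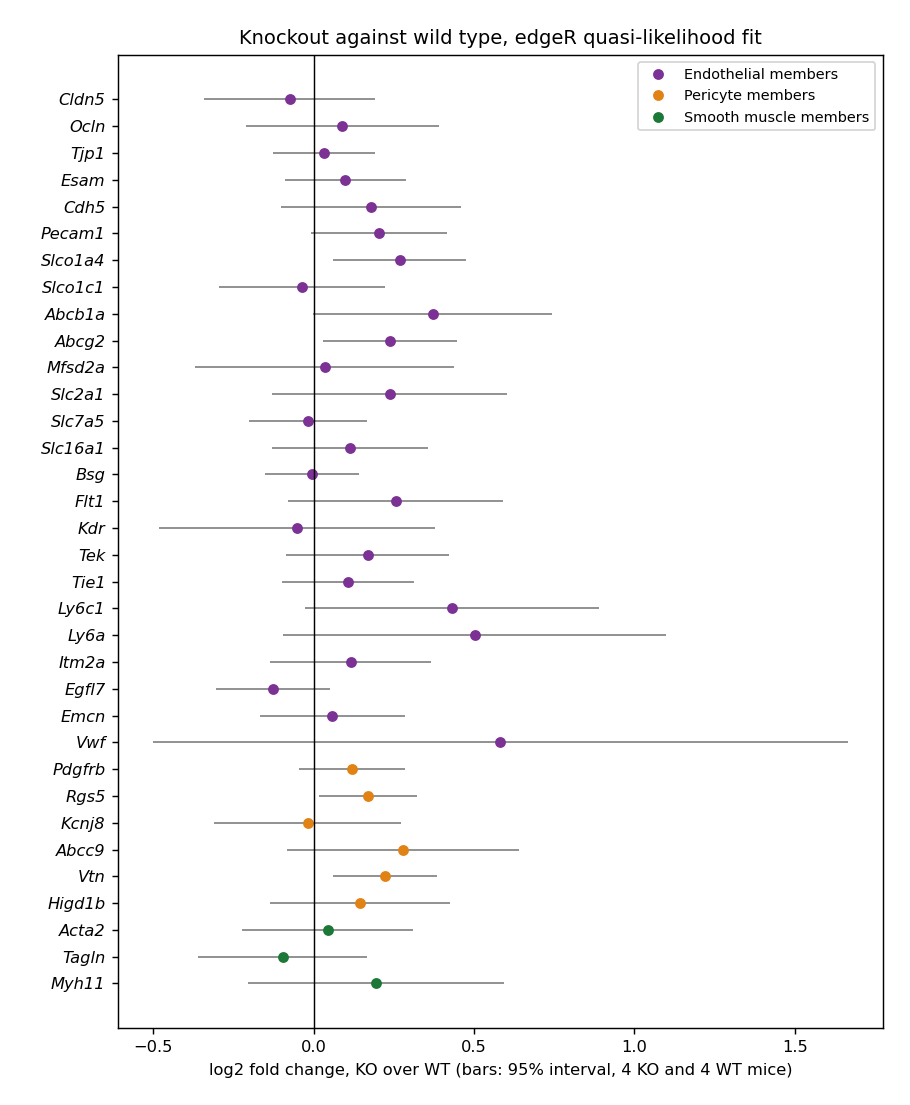
Log2 fold change of each member, KO over WT, with the 95% interval of the edgeR fit (4 KO and 4 WT mice), coloured by class. Most points lie right of 0, with 26 of 34 above it, and the interval is widest for Vwf, from -0.50 to 1.67.

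At an unadjusted p under 0.05 there were 4 members, Slco1a4, Abcg2, Vtn and Rgs5, all higher in KO, where 3.76% of all genes tested passed in either direction, 1.96% higher and 1.79% lower in KO. With the DESeq2 Wald test, run without the filter on low counts, the count was 6 (2.21% of 29371 genes). That share includes genes with very low counts, so it is not like the others. With limma-voom the count was 5 (4.26% of 16511 genes). The count turned on single WT libraries. Without WT replicate 3 it was 1, Vtn (4.25% of all genes), without WT replicate 2 it was 2, Slco1a4 and Vtn (362 of 16684 genes), and without WT replicate 4 it was 8 (6.67%). The groups overlapped for all 34 members, since 0 members had every KO library above every WT library (1.07% of all genes) and 0 had every KO library below every WT library (0.86%). In a count added after the values were seen, every KO library lay above WT replicates 1 to 3 for 6 members, where 3.28% of all genes did so, and below them for 0 members (3.88%). The 6 members above were Slco1a4, Abcb1a, Abcg2, Rgs5, Vtn and Higd1b. Since 0 members had every KO library above every WT library, WT replicate 4 was bound to reach the lowest KO library for each. Leaving out KO replicate 3 instead gave a count of 5 (2.45% of all genes). For 29 members the log2 fold change moved by more than 1.5 times when some single library was left out. For the other 5, Slco1a4, Abcg2, Rgs5, Vtn and Higd1b, it did not. Such a ratio is easily large where the log2 fold change is near 0, as for Bsg at -0.0054. No share of all genes is given for it. The lowest library of all was WT replicate 3 for 18 of the 34 members, while the highest was KO replicate 4 for 9, KO replicate 1 for 8, WT replicate 4 for 7 and KO replicate 2 for 6.

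**Figure D2:**
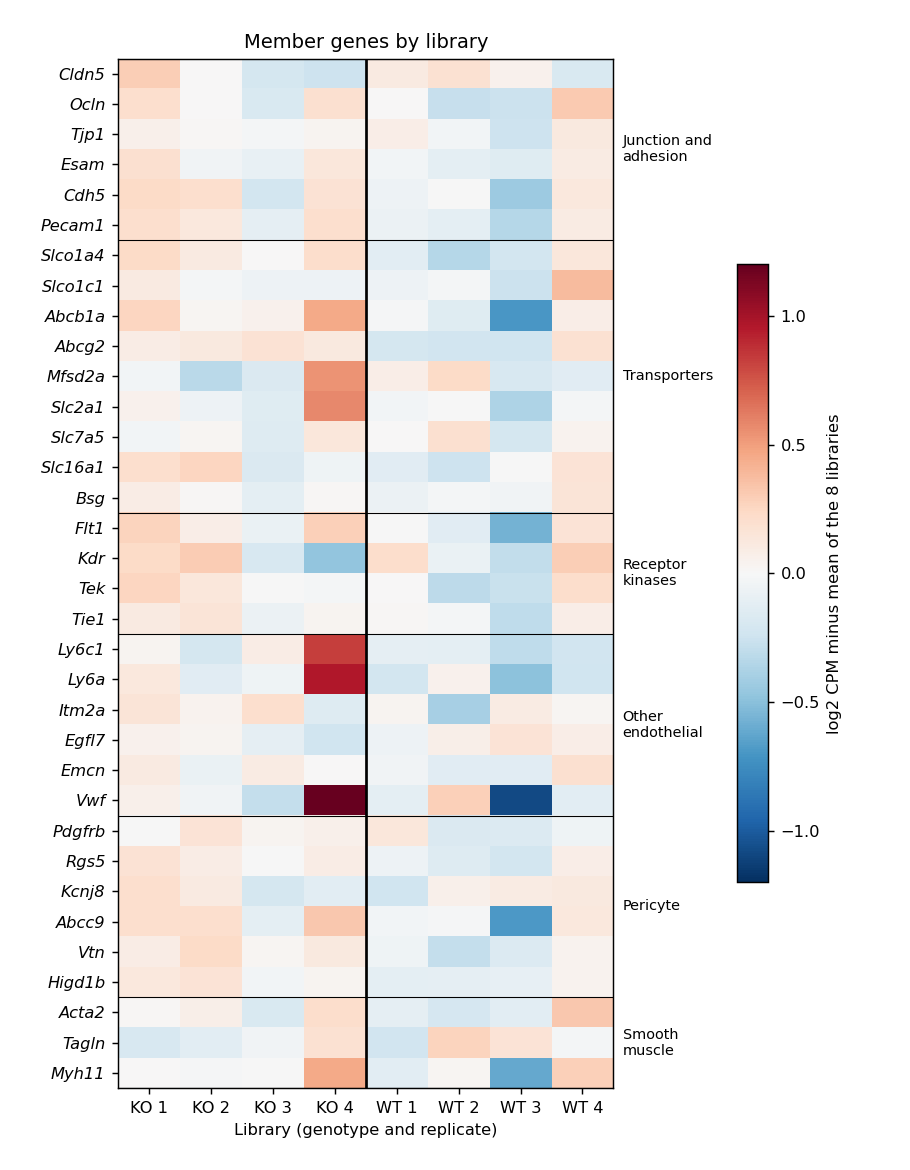
Level of each member (down the page, grouped by role) in each library (across, KO left and WT right), as the log2 level less its 8-library mean. WT replicate 3 is blue for most endothelial genes, and KO replicate 4 is darkest red for Vwf, Ly6a and Ly6c1.

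None of the junction and adhesion genes stood clear of the animal-to-animal spread, with log2 fold changes from -0.08 to 0.21. Of the 6, 5 had a log2 fold change above 0, with a median of 0.09, and 0 passed the test. Claudin-5 (Cldn5), the main sealing protein of the barrier's tight junctions, was 35.5, 29.1, 25.1 and 24.4 CPM in KO replicates 1 to 4, against 31.4, 33.01, 30.04 and 25.5 CPM in WT replicates 1 to 4. This gave a log2 fold change of -0.08 (SE 0.12), with a 95% interval of -0.34 to 0.19, and the value was -0.20 without KO replicate 1 and -0.01 without KO replicate 4. KO replicate 1 was the highest of all libraries and KO replicate 4 the lowest, so the KO mice spanned the WT range. Occludin (Ocln), another transmembrane tight junction protein, averaged 12.2 ± 1.49 CPM in KO and 11.4 ± 2.29 CPM in WT (SD, n = 4 each; log2 fold change 0.09). Tjp1, which encodes the junction scaffold ZO-1 and is not confined to endothelium, averaged 131 ± 3.36 CPM in KO and 128 ± 13.9 CPM in WT (log2 fold change 0.03). For Tjp1 the 95% interval of the log2 fold change ran from -0.13 to 0.19.

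Cdh5, the VE-cadherin of endothelial adherens junctions, was 18.2, 17.9, 13.3 and 17.5 CPM in KO replicates 1 to 4, against 14.9, 15.5, 11.5 and 16.9 CPM in WT replicates 1 to 4 (log2 fold change 0.18, SE 0.13, 0.08 without WT replicate 3 and 0.28 without KO replicate 3). KO replicate 3 lay apart from the other KO mice and below 3 of the 4 WT mice. Pecam1, the platelet-endothelial adhesion molecule CD31, was 30.4, 28.7, 24.6 and 30.3 CPM in KO replicates 1 to 4, against 25.1, 24.4, 20.8 and 28.3 CPM in WT replicates 1 to 4. Its log2 fold change of 0.21 (SE 0.10) had an unadjusted p of 0.0567 (edgeR), and it was 0.13 without WT replicate 3. For Pecam1, KO replicate 3 lay within the WT range and WT replicate 4 lay just under the other KO mice. Esam, an adhesion molecule of endothelial tight junctions, ranged from 17.3 to 21.2 CPM in KO and from 16.7 to 19.8 CPM in WT (log2 fold change 0.10).

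Among the transporters, the organic anion carrier Slco1a4 and the efflux pumps Abcg2 and Abcb1a were higher in KO with the smallest unadjusted p, while the nutrient carriers were close to the WT level or rested on a single mouse. Of the 9 transporter genes, 6 had a log2 fold change above 0, with a median of 0.11. An unadjusted p under 0.05 was found for 2 of them, where 3.76% of all genes tested had one. Slco1a4 (chr6:141805440-141856199, minus strand), an organic anion carrier of the capillary wall, was 74.1, 67.9, 63.4 and 72.9 CPM in KO replicates 1 to 4, against 57.8, 49.6, 54.1 and 69.4 CPM in WT replicates 1 to 4. The KO mean was 20.4% higher (log2 fold change 0.27, SE 0.10, unadjusted p = 0.0158, edgeR quasi-likelihood test). WT replicate 4 lay inside the KO range, while the other WT mice lay below every KO mouse. Slco1c1, the neighbouring carrier of thyroxine that astrocytes and choroid plexus also make, was 77.3, 70.5, 68.4 and 68.7 CPM in KO replicates 1 to 4, against 68.7, 70.3, 59.9 and 92.9 CPM in WT replicates 1 to 4. The log2 fold change was -0.04 (SE 0.12), and WT replicate 4, the library with the most choroid plexus marker RNA, was the highest. The part of that tissue in the Slco1c1 value was not tested, but without WT replicate 4 the log2 fold change was 0.10.

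Abcb1a, the P-glycoprotein efflux pump of mouse brain endothelium, was 41.99, 35.7, 36.5 and 48.1 CPM in KO replicates 1 to 4, against 34.9, 31.7, 21.6 and 37.1 CPM in WT replicates 1 to 4. Its log2 fold change was 0.37 (SE 0.16) with an unadjusted p of 0.0512 (edgeR), just past 0.05. WT replicate 4 again overlapped the KO mice, and WT replicate 3 was far below the rest. Without WT replicate 3 the value was 0.23. Abcg2, the breast cancer resistance protein, pumps drugs out of the same cells. It was 19.7, 20.1, 21.0 and 20.1 CPM in KO replicates 1 to 4, against 15.9, 15.8, 15.7 and 21.0 CPM in WT replicates 1 to 4 (log2 fold change 0.24, SE 0.10, unadjusted p = 0.0288, edgeR). The KO mice varied by 2.66% of their mean and the WT mice by 15.3%. WT replicates 1 to 3 were nearly equal, and WT replicate 4 was as high as the highest KO mouse, so the groups overlapped through that library alone.

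The glucose carrier GLUT1 (Slc2a1) was 93.8, 86.96, 81.95 and 135.2 CPM in KO replicates 1 to 4, against 88.3, 90.2, 69.98 and 88.8 CPM in WT replicates 1 to 4. Its log2 fold change of 0.24 (SE 0.16) rested on KO replicate 4, without which it was 0.05. Mfsd2a, the carrier of lysophosphatidylcholine-bound omega-3 fatty acids that holds back transcytosis, had the same high library: it was 14.6, 11.9, 13.2 and 21.6 CPM in KO replicates 1 to 4, against 15.7, 17.4, 13.03 and 13.5 CPM in WT replicates 1 to 4. This gave a log2 fold change of 0.03 (SE 0.18), and -0.18 without KO replicate 4. The large neutral amino acid carrier Slc7a5 averaged 55.5 ± 4.58 CPM in KO and 56.1 ± 6.28 CPM in WT (SD, n = 4 each; log2 fold change -0.02). Slc16a1, the monocarboxylate carrier MCT1, averaged 50.4 ± 7.06 CPM in KO and 46.5 ± 5.74 CPM in WT (log2 fold change 0.11). Basigin (Bsg), the chaperone of the monocarboxylate carriers, ranged from 353 to 405 CPM in KO and from 363 to 424 CPM in WT (log2 fold change -0.01). These 3 genes are made by other brain cells too, and their groups overlapped.

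**Figure D3:**
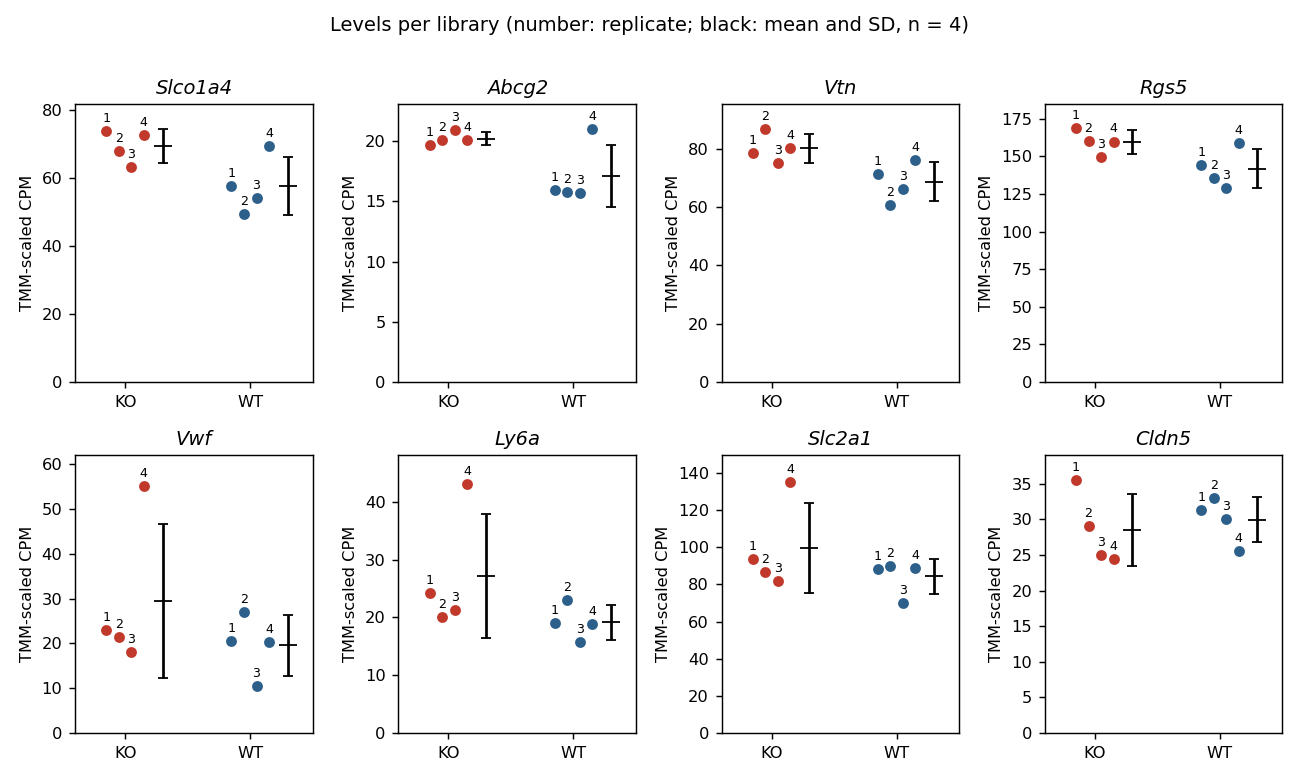
TMM-scaled CPM of 8 members in each library, KO left and WT right, with the replicate number above each point and the mean and SD (n = 4) in black. For Slco1a4, Abcg2, Vtn and Rgs5 the points of WT replicates 1 to 3 lie below all KO points and WT replicate 4 does not, and for Vwf, Ly6a and Slc2a1 KO replicate 4 lies alone at the top.

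The receptor tyrosine kinases gave 3 of 4 log2 fold changes above 0, with a median of 0.14, and 0 passed at either threshold. Flt1 (VEGFR1, a decoy and signalling receptor for VEGF) was 95.8, 84.1, 75.0 and 96.6 CPM in KO replicates 1 to 4, against 79.3, 72.2, 53.5 and 88.9 CPM in WT replicates 1 to 4 (log2 fold change 0.26, SE 0.15, and 0.13 without WT replicate 3). The groups overlapped, and WT replicate 3 was the lowest. Kdr (VEGFR2, the main signalling receptor for VEGF) was 23.6, 24.8, 17.5 and 14.5 CPM in KO replicates 1 to 4, against 23.3, 18.9, 16.3 and 24.6 CPM in WT replicates 1 to 4, with a log2 fold change of -0.05 (SE 0.19). Here KO replicate 4, high for many other members, was the lowest library, and KO replicate 2 the highest. The angiopoietin receptor Tek (TIE2) ranged from 16.9 to 20.5 CPM in KO and from 13.7 to 19.8 CPM in WT (log2 fold change 0.17, and 0.09 without WT replicate 2 or 0.28 without WT replicate 4), and its partner Tie1 ranged from 12.88 to 15.04 CPM in KO and from 10.95 to 14.3 CPM in WT (log2 fold change 0.11, and 0.03 without WT replicate 3).

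The 3 largest log2 fold changes of the module were in the remaining endothelial markers, and each rested largely on KO replicate 4. Vwf (von Willebrand factor, the clotting protein stored in endothelium and richest in veins) was 23.1, 21.5, 18.1 and 55.2 CPM in KO replicates 1 to 4, against 20.5, 27.0, 10.4 and 20.4 CPM in WT replicates 1 to 4. Its log2 fold change was 0.58 (SE 0.45) with all libraries, 0.09 without KO replicate 4 and 0.38 without WT replicate 3. The other KO mice lay within the WT range. Ly6a, the surface protein Sca-1 that in mouse brain is mainly endothelial, was 24.2, 20.1, 21.3 and 43.1 CPM in KO replicates 1 to 4, against 19.0, 23.0, 15.8 and 18.8 CPM in WT replicates 1 to 4 (log2 fold change 0.50, SE 0.26, and 0.19 without KO replicate 4). Its relative Ly6c1, a marker of capillary endothelium, was 16.6, 14, 17.3 and 28.9 CPM in KO replicates 1 to 4, against 14.99, 14.96, 13.1 and 13.8 CPM in WT replicates 1 to 4 (log2 fold change 0.43, SE 0.20, and 0.17 without KO replicate 4). KO replicate 4 was above every other mouse for all 3 genes, and KO replicate 2 was within the WT range for all 3. KO replicates 1 and 3 also lay above every WT mouse for Ly6c1, as did KO replicate 1 for Ly6a. KO replicate 4 was also the library with the most thalamic marker RNA, whose part in these values was not tested.

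Itm2a, a membrane protein of brain endothelium, ranged from 60.6 to 77.9 CPM in KO and from 51.1 to 72.4 CPM in WT (log2 fold change 0.12, 0.01 without WT replicate 2 and 0.18 without KO replicate 4), with KO replicate 4 the lowest of the KO mice. Egfl7, a secreted angiogenesis factor, had the lowest log2 fold change of the module: it was 23.0, 22.7, 20.6 and 18.7 CPM in KO replicates 1 to 4, against 21.2, 23.2, 24.8 and 23.4 CPM in WT replicates 1 to 4, a value of -0.13 (SE 0.08), and -0.07 without KO replicate 4. KO replicates 3 and 4 lay below all WT mice and the other KO mice did not. It was the 1 member for which every KO mouse lay below the WT mice other than replicate 1, where 2.21% of all genes did so. The sialomucin Emcn, a marker of veins and capillaries, averaged 8.37 ± 0.51 CPM in KO and 8.03 ± 0.90 CPM in WT (SD, n = 4 each; log2 fold change 0.06).

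The pericyte genes were slightly higher in KO in 5 of 6 cases (median log2 fold change 0.16), and 2 had an unadjusted p under 0.05. Among all genes tested, 49.5% lay above 0 and 3.76% had an unadjusted p under 0.05. Vtn (vitronectin, an extracellular matrix protein that brain pericytes secrete; chr11:78499091-78502324, plus strand) was 78.8, 87.0, 75.1 and 80.2 CPM in KO replicates 1 to 4, against 71.5, 60.9, 66.3 and 76.3 CPM in WT replicates 1 to 4. The KO mean was 16.7% higher (log2 fold change 0.22, SE 0.07, unadjusted p = 0.0108, edgeR quasi-likelihood test), and the unadjusted p was under 0.05 in all 16 alternatives as well. WT replicate 4 lay just above KO replicate 3, which was the sole overlap. Rgs5, a regulator of G protein signalling that is among the most used pericyte markers (chr1:169655501-169695813, plus strand), was 168.9, 160.2, 149.5 and 159.9 CPM in KO replicates 1 to 4, against 144.3, 135.4, 129.0 and 159.1 CPM in WT replicates 1 to 4. The KO mean was 12.4% higher (log2 fold change 0.17, SE 0.07, unadjusted p = 0.0329, edgeR). Again the WT mice other than replicate 4 lay below every KO mouse.

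Higd1b, a pericyte marker of the hypoxia-inducible domain family, showed the same order at a low level: it was 3.32, 3.41, 2.96 and 3.10 CPM in KO replicates 1 to 4, against 2.79, 2.81, 2.83 and 3.12 CPM in WT replicates 1 to 4 (log2 fold change 0.14, SE 0.13). At 81 counts in its lowest library it was the least counted member, and its unadjusted p was 0.282 (edgeR). Pdgfrb, the receptor through which pericytes are recruited, ranged from 33.99 to 38.2 CPM in KO and from 30.3 to 37.5 CPM in WT (log2 fold change 0.12, and 0.19 without WT replicate 1). Kcnj8 and Abcc9 encode the pore (Kir6.1) and the regulatory subunit (SUR2) of the vascular ATP-sensitive potassium channel and lie next to each other on chromosome 6. Abcc9 ranged from 13.5 to 18.4 CPM in KO and from 9.07 to 16.1 CPM in WT, with a log2 fold change of 0.28 (SE 0.16) that was 0.13 without WT replicate 3. Kcnj8 ranged from 4.43 to 5.90 CPM in KO and from 4.35 to 5.56 CPM in WT, with a log2 fold change of -0.02 (SE 0.13). The 95% interval included 0 for both subunits.

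Smooth muscle genes showed no common direction: 2 of 3 log2 fold changes were above 0, with a median of 0.04, and 0 had an unadjusted p under 0.05. Acta2 (smooth muscle alpha-actin, whose promoter is shown above) was 14.6, 15.2, 12.8 and 16.8 CPM in KO replicates 1 to 4, against 13.5, 12.6, 13.3 and 18.1 CPM in WT replicates 1 to 4 (log2 fold change 0.04, SE 0.12). WT replicate 4, the highest, also had the highest summed level of 10 fibroblast and meningeal markers (led by Igfbp2), 114 CPM, against 59.5 to 78.6 CPM in the KO mice and 44.7 to 80.9 CPM in the other WT mice, and their part in the Acta2 value was not tested. Tagln, the actin-binding protein SM22, was 8.53, 8.90, 9.43 and 11.02 CPM in KO replicates 1 to 4, against 8.30, 11.7, 10.9 and 9.57 CPM in WT replicates 1 to 4 (log2 fold change -0.10, SE 0.12). Myh11, the smooth muscle myosin heavy chain, was 10.5, 10.3, 10.4 and 14.4 CPM in KO replicates 1 to 4, against 9.59, 10.6, 6.82 and 12.8 CPM in WT replicates 1 to 4 (log2 fold change 0.19, SE 0.18). Without KO replicate 4 or WT replicate 3 the Myh11 value was 0.06 or 0.05, and without WT replicate 4 it was 0.34. The highest library was KO replicate 4 for Myh11, WT replicate 4 for Acta2 and WT replicate 2 for Tagln, and KO replicate 4 was the highest or second highest library for all 3 genes.

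Per kilobase of exon, the members covered a wide range of levels. Basigin was by far the highest at 211 CPM per kb over the 8 libraries, above 99.5% of the genes tested. It was followed by Itm2a at 39.1, Vtn at 36.7, Rgs5 at 33.2, Slc2a1 at 26.2 and Cldn5 at 20.6 CPM per kb, and Itm2a and Vtn did not differ beyond their SDs in either genotype. At the low end were Vwf at 1.53, Emcn at 1.52 and Myh11 at 1.41 CPM per kb, whose SDs overlapped in both genotypes. The median level over the members was 6.56 CPM per kb for the endothelial class, 4.92 for the pericyte class and 4.93 for the smooth muscle class. Among the transporters, the pumps Abcb1a and Abcg2 were at 6.56 and 2.29 CPM per kb, and the nutrient carriers Slc2a1, Slc7a5 and Mfsd2a at 26.2, 15.1 and 6.72 CPM per kb.

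**Figure D4:**
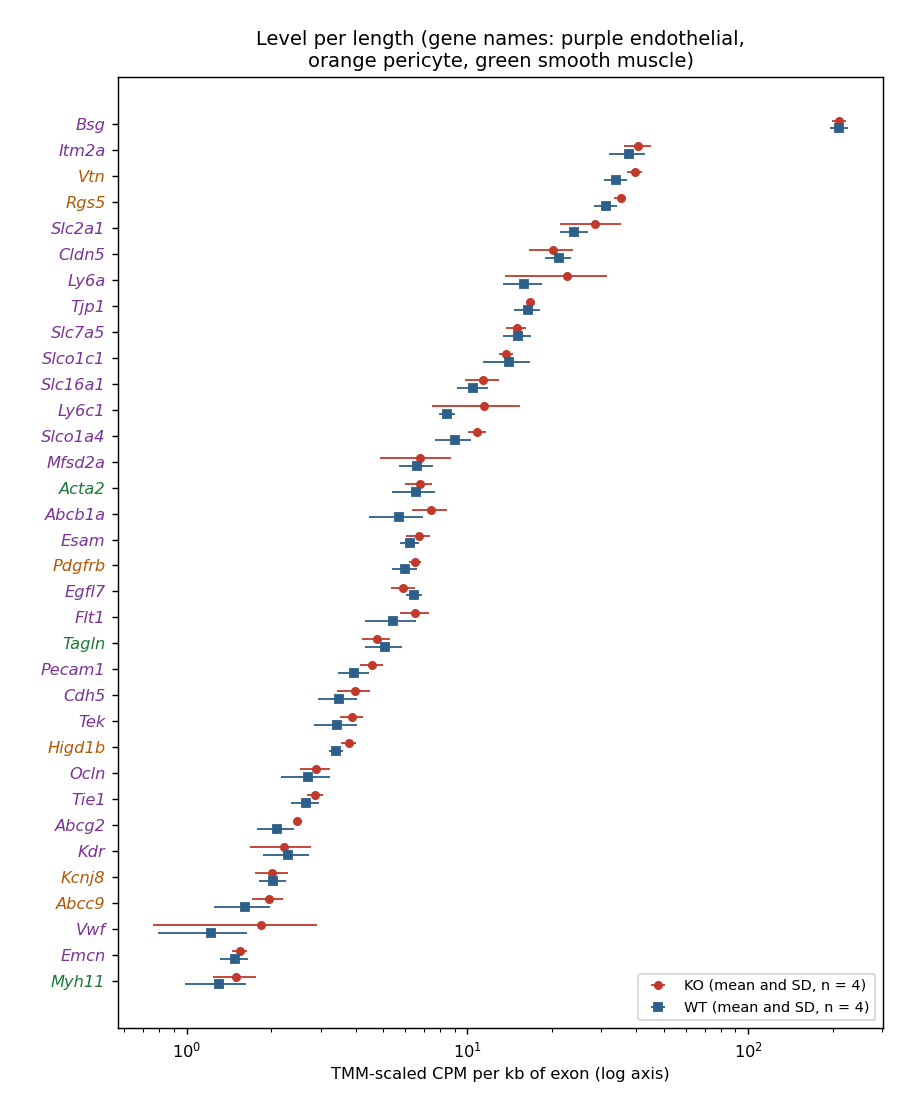
Mean and SD of each member's level (TMM-scaled CPM per kb of exon, log axis) in KO and WT mice (n = 4 each), ordered by the mean of all 8 libraries. The levels run from 1.41 CPM per kb for Myh11 to 211 for Bsg, and the KO and WT bars overlap for most members.

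A class level per library was taken as the mean over its members of the log2 level minus the mean of the 8 libraries. For the 25 endothelial genes it was 0.14, 0.03, -0.07 and 0.20 in KO replicates 1 to 4, against -0.03, -0.07, -0.27 and 0.08 in WT replicates 1 to 4. For the 6 pericyte genes it was 0.13, 0.16, -0.05 and 0.08 in KO replicates 1 to 4, against -0.06, -0.11, -0.21 and 0.06 in WT replicates 1 to 4. For the 3 smooth muscle genes it was -0.06, -0.02, -0.08 and 0.28 in KO replicates 1 to 4, against -0.15, 0.03, -0.19 and 0.19 in WT replicates 1 to 4. WT replicate 3 was the lowest library and KO replicate 3 the lowest KO library in each class, and the genotypes overlapped in each. The order of the KO mice differed by class: KO replicate 2 was highest for pericytes, and KO replicate 4 was highest for endothelium and smooth muscle. No test was made of these levels, since the members vary together between mice.

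**Figure D5:**
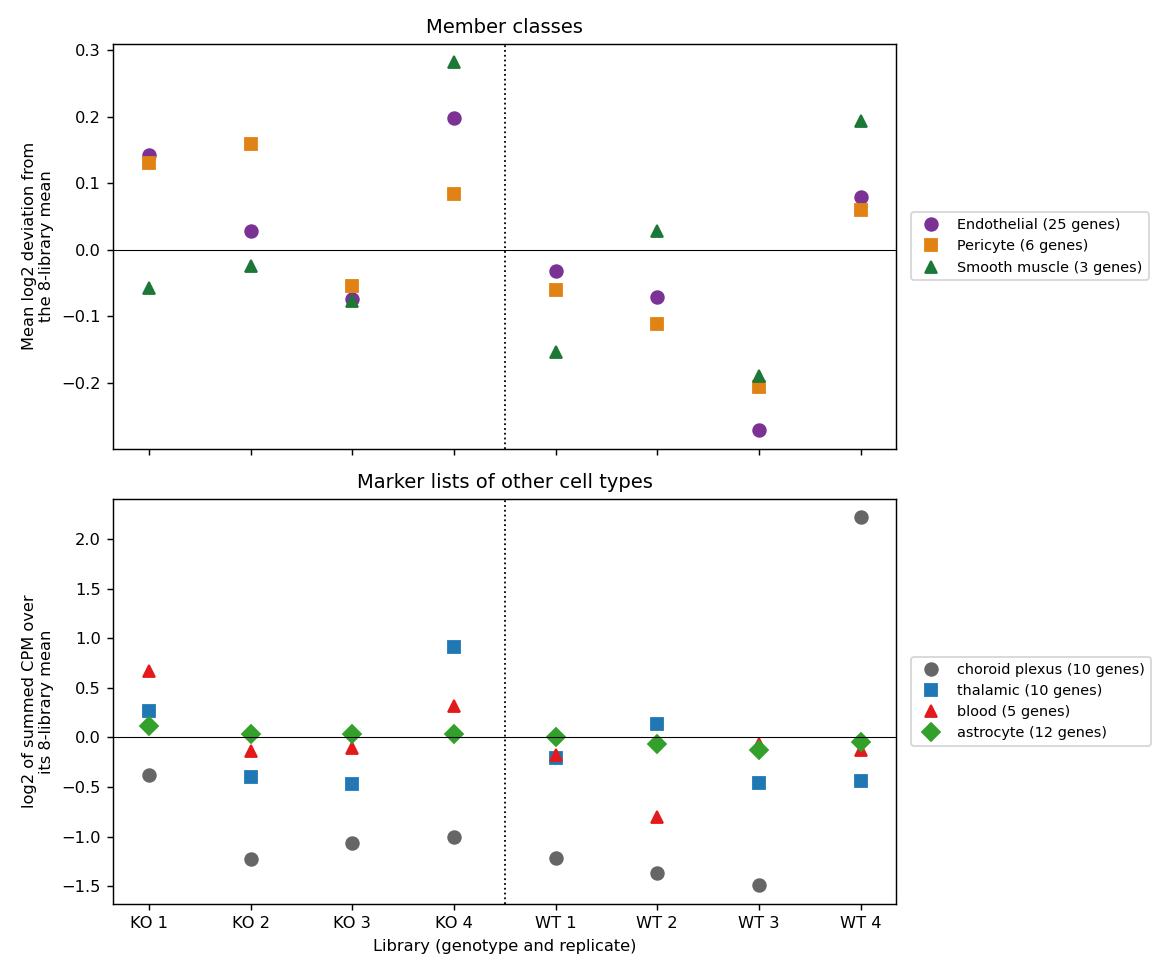
Upper panel, mean log2 deviation of the endothelial, pericyte and smooth muscle members from their 8-library mean in each library. Lower panel, log2 of the summed CPM of 4 marker lists of other tissue over its 8-library mean, with WT replicate 4 far above the rest for choroid plexus (4415 CPM) and KO replicate 4 for thalamic genes (716 CPM).

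Markers of blood, astrocytes, oligodendrocytes, microglia and thalamus were mostly higher in KO as well, though none passed the adjusted threshold. Among all genes tested, 49.5% lay above 0 and 3.76% had an unadjusted p under 0.05. That p was reached, higher in KO, by 3 red cell, 5 astrocyte and 3 oligodendrocyte genes, and, lower in KO, by 1 ependymal gene. Every KO library lay above every WT library for 2 astrocyte genes (1.07% of all genes) and below for 1 ependymal gene (0.86%). The 5 red cell genes, led by Hbb-bs, summed to 156, 88.9, 91.1 and 122 CPM in KO replicates 1 to 4, against 86.4, 56.0, 93.2 and 89.6 CPM in WT replicates 1 to 4, with 5 of 5 log2 fold changes above 0 and 0 past the adjusted threshold. The 12 astrocyte genes, led by Slc1a2, summed to between 7580 and 8051 CPM in KO and between 6809 and 7447 CPM in WT, with 10 of 12 above 0, and WT replicate 3 was again the lowest. The 10 oligodendrocyte genes, led by Mbp, ran from 9340 to 11093 CPM in KO and from 7686 to 10460 CPM in WT, with 10 of 10 above 0. Microglial and macrophage genes, led by Csf1r, were above 0 in 10 of 11 cases, with sums of 627 to 752 CPM in KO and 592 to 680 CPM in WT. Cortical neuron genes, led by Slc17a7, were above 0 in 1 of 8 cases, with sums of 758 to 1238 CPM in KO and 1009 to 1470 CPM in WT. The 7 ependymal genes, led by Foxj1, were all below 0, with sums of 18.1 to 25.5 CPM in KO and 23.2 to 27.7 CPM in WT. Thalamic genes were above 0 in 10 of 10 cases, with a median of 0.46. Spiny neuron genes were above 0 in 7 of 10 cases, and fibroblast and meningeal genes in 4 of 10. Choroid plexus genes were above 0 in 0 of 10 cases, with WT replicate 4 far above the rest. None of the genes in these lists was at 0 in all libraries and none passed the adjusted threshold, and their part in the values of the members was not tested.

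Around the receptors, ligands and phosphatases of the same signalling routes gave no common direction. The list of 13 genes of the VEGF, angiopoietin and PDGF systems held ligands, co-receptors, the receptor Flt4 and the phosphatase Ptprb. Of these genes, 4 had a log2 fold change above 0 and 9 below, with a median of -0.07, and 0 passed either threshold. Flt4 (0.14) and Ptprb (0.26) were among those above 0. Vegfb averaged 28.1 ± 1.13 CPM in KO and 31.3 ± 4.13 CPM in WT (SD, n = 4 each; log2 fold change -0.15, and -0.25 without WT replicate 4), and Pdgfd, a ligand of PDGFRB, averaged 5.80 ± 1.42 CPM in KO and 4.26 ± 1.45 CPM in WT (log2 fold change 0.43, and 0.70 without WT replicate 4). Ptprb, the endothelial phosphatase VE-PTP that restrains TIE2, averaged 59.4 ± 5.54 CPM in KO and 49.7 ± 8.49 CPM in WT (log2 fold change 0.26, and 0.15 without WT replicate 3). Of 16 genes of the Wnt and norrin route that induces the barrier, 9 were above 0, with a median of 0.01. Tspan12, the co-activator of norrin signalling, averaged 28.8 ± 3.05 CPM in KO and 25.2 ± 2.01 CPM in WT and had the smallest p (log2 fold change 0.19, unadjusted p = 0.0448, edgeR). For Reck, the receptor partner of Wnt7 ligands, the log2 fold change was 0.20, and for the ligand Wnt7b it was -0.30, with 27.7 ± 3.26 CPM in KO and 34.01 ± 10.9 CPM in WT. Without WT replicate 2 the Wnt7b value was -0.05.

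Other junction and endothelial genes were mixed. Of 13 further tight junction genes, 12 were tested and 8 were above 0, with a median of 0.08. Jam2 averaged 61.5 ± 6.01 CPM in KO and 54.1 ± 2.69 CPM in WT (log2 fold change 0.18, unadjusted p = 0.0269, edgeR). For Cldn11, which seals oligodendrocyte myelin, the value was 0.21 (0.12 without KO replicate 4), and Marveld2 (tricellulin) had 0.56 at about 1 CPM (0.30 without KO replicate 2). Of 24 further genes listed as endothelial, 13 were above 0, with a median of 0.02. An unadjusted p under 0.05 was found for 3 of them, in different directions, where 3.76% of all genes tested had one. Erg, an ETS factor that maintains endothelial identity, averaged 7.82 ± 0.70 CPM in KO and 6.30 ± 0.76 CPM in WT (log2 fold change 0.31, unadjusted p = 0.0213, edgeR). Car4, a carbonic anhydrase on the capillary surface, had a log2 fold change of 0.30, and 0.17 without WT replicate 2. Foxf2, a forkhead factor of brain endothelium and pericytes, was lower at 2.34 ± 0.12 CPM in KO and 2.97 ± 0.41 CPM in WT (log2 fold change -0.34, unadjusted p = 0.0386, edgeR).

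Among genes that part arteries from veins, 9 of 13 were above 0, with a median of 0.13. The exception with the smallest p was Efnb2, the ephrin-B2 ligand of arterial endothelium that neurons also make. It was 65.0, 67.6, 60.5 and 62.8 CPM in KO replicates 1 to 4, against 68.6, 71.0, 72.7 and 77.4 CPM in WT replicates 1 to 4 (log2 fold change -0.18, SE 0.06, unadjusted p = 0.00948, edgeR). All KO mice lay below all WT mice, as for 0.86% of all genes. For its receptor Ephb4, of venous endothelium, the value was 0.20 (0.08 without KO replicate 4), and Gja5, the arterial connexin 40, had -0.85 at 0.27 ± 0.17 CPM in KO and 0.48 ± 0.27 CPM in WT. Without WT replicate 4 the Gja5 value was -0.46, and without KO replicate 2 it was -0.55.

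Further pericyte genes were above 0 in 14 of 16 cases, with a median of 0.15, against 49.5% of all genes tested. Atp13a5, a P-type ATPase that marks brain pericytes, was 17.6, 17.5, 16.5 and 18.8 CPM in KO replicates 1 to 4, against 15.03, 15.5, 13.9 and 15.8 CPM in WT replicates 1 to 4 (log2 fold change 0.22, SE 0.07, unadjusted p = 0.0109, edgeR). Every KO mouse lay above every WT mouse, WT replicate 4 included, as for 1.07% of all genes. Mcam, the adhesion molecule CD146, averaged 34.5 ± 2.49 CPM in KO and 30.8 ± 1.34 CPM in WT (log2 fold change 0.16, unadjusted p = 0.0326, edgeR), and the forkhead factor Foxc1 had a log2 fold change of 0.29. Of 16 further smooth muscle genes, 14 were tested and 8 were above 0, with a median of 0.07. Cnn1 (calponin), a marker of contractile smooth muscle, was 0.41, 0.39, 0.26 and 0.26 CPM in KO replicates 1 to 4, against 0.65, 0.51, 0.65 and 0.49 CPM in WT replicates 1 to 4 (log2 fold change -0.80, SE 0.28, unadjusted p = 0.014, edgeR). These values rest on 7 to 19 counts per library. Pln (phospholamban) had a log2 fold change of 0.52 and Myl9, a myosin light chain, had 0.20 (0.13 without KO replicate 4). Of 10 basement membrane genes, 6 were above 0, with a median of 0.01. Among them Sparc, a collagen-binding matrix protein, had a log2 fold change of 0.30, which was 0.07 without KO replicate 4 and 0.17 without WT replicate 4. Nid2 (nidogen-2) had -0.44, and -0.18 without WT replicate 4. Hspg2 (perlecan) had -0.17, which was -0.05 without WT replicate 2 and -0.31 without WT replicate 3. No genes of these lists passed the adjusted threshold.

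Some members could share reads with other genes, because no source used here says whether counting used the strand. In the annotation, exons of Egfl7 overlap Gm20532 and Mir126a on the same strand and Agpat2 and Mir126b on the opposite strand. Exons on the opposite strand overlap Abcb1a (Gm42686), Slc2a1 (Gm12868), Abcc9 (5330439B14Rik) and Tagln (Gm48529 and Pcsk7), so the values of these members may include reads of those genes. The same holds for Wnt7b, Tspan12, Foxf2, Gja5, Ephb4, Mcam, Pln, Nid2 and Abcb1b, whose exons also overlap a gene on the opposite strand. Close relatives were low beside the members, with exceptions. Abcb1b ran from 3.10 to 3.85 CPM in KO and from 2.64 to 3.76 CPM in WT. Ly6c2 was at most 0.14 CPM in KO and 0.03 CPM in WT, Slco1a6 at most 0.03 CPM, and Actg2 at most 0.16 CPM in KO and 0.19 CPM in WT, all too low to be tested. Slco1a5 was at most 0.17 CPM in KO and reached 1.26 CPM in WT replicate 4, against at most 0.07 CPM in the other WT mice. Acta1 ran from 5.58 to 7.40 CPM in KO and from 6.15 to 7.04 CPM in WT, and Ly6e averaged 164 ± 12.2 CPM in KO and 150 ± 25.1 CPM in WT (SD, n = 4 each; log2 fold change 0.12).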

How the data were processed

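Polyadenylated RNA of 1 striatum per mouse was sequenced with a stranded dUTP kit, per the labels' protocols, with 4 KO and 4 WT libraries. The authors deposited read counts as whole numbers, 1 column per library and 1 row per Ensembl gene. The submitters' processing notes name bcl2fastq 2.17.1.14 and the build mm10. No source used here gives the aligner, the counter, its annotation or its strand setting. Nothing in the labels mentions molecular identifiers, so counts include PCR copies.

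Symbols, exon lengths and overlaps came from the supplied GENCODE annotation of GRCm38. It matched 31292 of 31417 identifiers, and the 125 others held 0.044% of the counts. Of the genes looked up, Slco1a1 was not analysed here. Total counts of 24441242 to 37145559 per library give a floor of 3 counts, or 0.0808 to 0.123 CPM, which covers counting error only. Library pairs of the same genotype (12 in all) gave 7.07 to 32.1 for chi-square divided by its degrees of freedom, and the 16 pairs of different genotype gave 7.93 to 33.6, so no library was a copy of another.

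Counts were fitted in R 4.3.3 with edgeR 4.0.16: filterByExpr with a minimum count of 10 kept 16511 genes, libraries were scaled by TMM, and genotype was the sole term of a robust quasi-likelihood model of all 8 libraries. Two-sided p-values were adjusted over all of these genes (Benjamini-Hochberg), and 0.05 was the threshold. Log2 levels used a prior count of 2. The procedure was tested on simulated counts. The 16 alternatives were other scalings, other filters, DESeq2 1.42.0, limma-voom (limma 3.58.1), the replicate number as a block, each library left out, and replicate 4 of both genotypes left out. Libraries with the same number did not deviate together, and the numbers were taken as names. This does not exclude that the numbers pair the mice.

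The members and all gene lists were chosen with earlier results of these data known. Named are Dclk3, all members, the 3 genes with the smallest p of each pathway list, the most abundant gene of each list of another cell type, and all close relatives. Enpp2 and Flt4 are named as well. The 3 genes with the smallest p need not pass any threshold.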

Additional observations from a re-analysis of the deposited data

Results flagged for a closer look

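Values that stood far from the other 3 libraries of their genotype, by Dixon's criterion for 4 values, were found in 16 of 144 groups checked, where chance flags about 1 in 20 groups. In KO mice, replicate 3 was low for Cdh5 (13.31 CPM) and Ptprb (51.16 CPM). KO replicate 4 was high for Vwf (55.19 CPM), for Myh11 (14.38 CPM) and for the mean log2 deviation of the smooth muscle class (0.2814). KO replicate 2 was high for Marveld2 (1.759 CPM), and KO replicate 1 was high for the summed astrocyte markers (8051 CPM). In WT mice, replicate 4 was high for Abcg2 (21.02 CPM), Higd1b (3.125 CPM), Acta2 (18.09 CPM) and the summed choroid plexus markers (4415 CPM), and low for Vegfb (25.11 CPM). WT replicate 3 was low for Slc2a1 (69.98 CPM) and WT replicate 2 for Itm2a (51.14 CPM). WT replicate 1 was low for Kcnj8 (4.352 CPM) and high for the summed spiny neuron markers (5244 CPM).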

How the results depend on the processing

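Across the 16 alternatives, 0 members passed the adjusted threshold in any, and 26 of the 34 members kept the sign of their log2 fold change in all of them. Of 544 member values, 28 turned sign, and the cause was not tested. Leaving out single libraries, the log2 fold change ran from -0.0349 to 0.0469 for Bsg, from -0.0933 to 0.0494 for Kcnj8, from -0.170 to 0.0759 for Kdr, from -0.178 to 0.138 for Mfsd2a, from -0.0840 to 0.0467 for Slc7a5, from -0.120 to 0.102 for Slco1c1, from -0.0206 to 0.177 for Acta2 and from -0.0372 to 0.0785 for Tjp1. With limma-voom the sign turned for Bsg (0.028), Kcnj8 (0.058), Slco1c1 (0.0277) and Mfsd2a (-0.0800). Without replicate 4 of both genotypes it turned for Bsg (0.0432), Kcnj8 (0.0523), Kdr (0.168), Slco1c1 (0.119), Mfsd2a (-0.225) and, outside the members, Sparc (-0.0529). Leaving out single libraries, the median log2 fold change ran from 0.08 to 0.19 for endothelial, from 0.13 to 0.21 for pericyte and from -0.02 to 0.18 for smooth muscle members. The number of members at an unadjusted p under 0.05 ran from 1 to 8 when single libraries were left out, where all genes at that p numbered 362 to 1113, and was 7 without replicate 4 of both genotypes (1364 of 16585 genes). Members with every KO library above every WT library numbered 0 to 6 and those with every KO library below 0 to 1 when single libraries were left out, and 6 were above and 0 below without replicate 4 of both genotypes. The same held for 1.68% to 3.28% (above) and 1.54% to 3.88% (below) of all genes when single libraries were left out, and for 6.59% and 6.86% without both. These counts of members were added after seeing the data. The genes called numbered 3 with DESeq2, 3 without replicate 4 of both genotypes, 1 to 2 when single libraries were left out, and 1 with no filter, where Dclk3 was at -2.07 with an adjusted p of 0.0647. Correlations of same-numbered libraries were 0.037, 0.021, 0.053 and -0.276, against -0.162 to 0.240 for differently numbered KO and WT libraries. They cannot decide whether the numbers pair the mice, since libraries also differed in RNA of neighbouring tissue. With the replicate block, 1 gene and 0 members were called and 9 members had an unadjusted p under 0.05 (704 of 16511 genes), against 4 without it (620 genes). The median biological coefficient of variation was 12.1% for the members and 10.0% for all genes tested.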
